A study of Mus musculus with 4 samples.

Results

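The 10 insulin signalling genes considered here were Insr, Irs1, Irs2, Pik3r1, Pik3ca, Akt1, Akt2, Foxo1, Foxo3 and Ptpn1, and they were looked up by gene symbol in the deposited liver RNA-Seq table of 7000 genes. Insr, Irs1, Pik3r1, Akt1 and Foxo1 were listed, that is 5 of the 10. The number of genes tested by the authors is not given, so the share of all genes that were listed is not known. Irs2, Pik3ca, Akt2, Foxo3 and Ptpn1 were not listed, under these symbols or under any RefSeq synonym. Whole liver was taken from male FVB/N mice that received, from weaning and for 6 weeks, a Se-deficient diet with either no added Se (0 Se, 2 mice) or with 0.1 ppm Se as sodium selenite (0.1 Se, 2 mice). The study asked how the supply of Se, the trace element of selenoproteins, changes liver gene expression. Total RNA was depleted of ribosomal RNA and sequenced, giving 4 libraries. The table holds no column for a single mouse or for a single diet. The level available for each gene is the authors' mean over all 4 libraries, in CPM (reads of a gene scaled to a common library total), so both diets stand in every value given here, and the spread between mice, the depth of each library and the difference between the diets were not analysed here.

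Insulin acts on the liver through a receptor tyrosine kinase at the cell surface, encoded by Insr. The active receptor phosphorylates the docking proteins Irs1 and Irs2, which recruit phosphatidylinositol 3-kinase through its regulatory subunit (Pik3r1). The catalytic subunit (Pik3ca) then makes the membrane lipid that brings the protein kinases Akt1 and Akt2 to the membrane, where they are activated. Akt phosphorylates the transcription factors Foxo1 and Foxo3, which leave the nucleus and stop driving genes of gluconeogenesis. Ptpn1 encodes a tyrosine phosphatase that switches the receptor off. Most of these steps are changes of phosphorylation, which mRNA levels do not measure.

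Motifs of the steps from the docking protein to the kinase and from the kinase to the transcription factor were searched for in coding sequences. The stretches below are matches to these motifs in listed mRNAs. The regulatory subunit binds a phosphorylated tyrosine that has a methionine 3 residues further on, so each coding sequence was searched for a tyrosine codon (TAC or TAT), any 2 codons, and then ATG, in frame and on the coding strand. Irs1 held 9 such sites among its 1231 codons. Of the 5983 coding sequences of listed genes that were searched, 27.7% held at least 1 site, and 0 others held as many as Irs1, the next highest count being 8. Counts were not adjusted for length, and the coding sequence of Irs1 was long, at the 89.3rd percentile. The 6 Irs1 sites in which the tyrosine codon is followed directly by ATG are printed 5′ to 3′, with the tyrosine codon and the ATG 3 codons on in capitals. They lie in exon 1 of 2, on the minus strand of chromosome 1 in NCBIM37 (mm9), in GENCODE vM1 transcripts, and codons are counted from the start codon.
Irs1 codon 608, chr1:82285227-82285256: gatgatggcTATatgcccATGtctcctggg
Irs1 codon 628, chr1:82285167-82285196: aatggggacTATatgcccATGagccccaag
Irs1 codon 658, chr1:82285077-82285106: cccaatggcTACatgatgATGtcacccagt
Irs1 codon 727, chr1:82284870-82284899: acaggtgacTACatgaacATGtccccagtg
Irs1 codon 935, chr1:82284246-82284275: tcggaagagTACatgaacATGgacttgggg
Irs1 codon 983, chr1:82284102-82284131: cgtggtgacTACatgaccATGcagataggt

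Akt phosphorylates a serine or threonine that has an arginine 5 residues and another 3 residues before it. The codon search for this motif found 3 sites in Foxo1, at codons 24, 253 and 316 of 652. At least 1 site was found in 26.3% of the coding sequences searched, and at least 3 in 3.21%. The first Foxo1 site lies in exon 1 of 3 and the others in exon 2, on the plus strand of chromosome 3. Both arginine codons and the serine or threonine codon are in capitals.
Foxo1 codon 24, chr3:52072769-52072804: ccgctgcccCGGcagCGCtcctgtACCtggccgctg
Foxo1 codon 253, chr3:52149072-52149107: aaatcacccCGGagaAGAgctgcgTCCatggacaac
Foxo1 codon 316, chr3:52149261-52149296: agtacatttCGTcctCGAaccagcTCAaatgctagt

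Both searches were run on every member, with no adjustment for the length of the coding sequence. Irs1 also held 7 arginine-directed sites, a count that 0.669% of the coding sequences reached. Insr, Akt1 and Foxo1 each held 2 tyrosine sites and Pik3r1 held 1, with no arginine-directed site in Pik3r1 and 2 each in Insr and Akt1. Among the members that were not listed, Irs2 held 9 tyrosine sites and 5 arginine-directed ones. Akt2 held 2 of each, Ptpn1 held 1 arginine-directed site and no tyrosine site, and Pik3ca held neither. Foxo3, the paralog of Foxo1, held 1 tyrosine site and 3 arginine-directed sites, the latter at codons 32, 252 and 314 of 672. A match of codons is a description of the sequence and does not show that a site is phosphorylated in these livers.

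**Figure D1:**
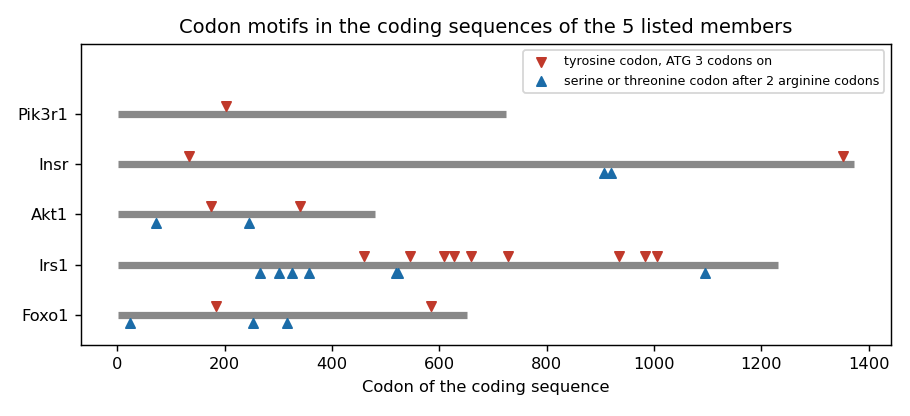
Positions of the codon motifs along the coding sequences of the 5 listed members, with the codon number on the horizontal axis and 1 grey line per gene as long as its coding sequence. Red triangles mark tyrosine codons with ATG 3 codons on and blue triangles mark serine or threonine codons with arginine codons 5 and 3 codons before; Irs1 carries 9 red marks between codons 460 and 1006, and Foxo1 carries 3 blue marks.

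At the top of the pathway, Insr had the highest mean level of the listed members, at 187 CPM (7.55 as deposited, on the log2 scale). This placed it at the 93.2nd percentile of the listed genes, whose median was 18.7 CPM. Its mRNA is also among the longest, with 9355 bases (97.1st percentile of length), and a long mRNA yields more reads per molecule. Divided by length, the level of Insr was 20.0 CPM per kilobase, which was 3.23 times the median of all listed genes (6.19 CPM per kilobase) and stood at the 76.8th percentile. The gene lies on chromosome 8 of NCBIM37 from 3150922 to 3279617, on the minus strand. The annotated transcript with 21 exons has exactly the length given in the deposited table.

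Irs1, the docking protein gene on the minus strand of chromosome 1 from 82229676 to 82287991, had a mean level of 59.5 CPM (log2 5.89), at the 78.7th percentile. Its mRNA of 9163 bases is nearly as long as that of Insr. Per kilobase the level was 6.49 CPM, at the 51.2nd percentile and 1.05 times the median. The level per kilobase of Insr was thus 3.08 times that of Irs1. The annotated gene Gm9747 lies on the opposite strand over 2822 bases, or 30.9%, of the Irs1 transcript. The libraries were prepared with a stranded kit, and the counting step is described without mention of strand, so reads of Irs1 and of Gm9747 may not have been told apart. Irs2, the paralog, was not listed, so the docking proteins could not be compared.

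Pik3r1 encodes the regulatory subunit of phosphatidylinositol 3-kinase and lies on the minus strand of chromosome 13 from 102450716 to 102538172. Its mean level was 144 CPM (log2 7.17), at the 90.9th percentile. Per kilobase it was the highest of the listed members, at 20.9 CPM and the 77.6th percentile. The level per kilobase of Pik3r1 was 1.04 times that of Insr, while in CPM it was 0.771 times that of Insr, so the order of these genes depends on the division by length. The gene also has a shorter annotated transcript of 5843 bases, and the table does not separate the isoforms. The catalytic subunit gene Pik3ca was not listed.

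Akt1, a protein kinase gene on the minus strand of chromosome 12 from 113892032 to 113913095, had a mean level of 40.7 CPM (log2 5.35), at the 70.7th percentile. With 2690 bases its mRNA was the shortest of the listed members and the only one below the median length of the listed genes, 2959.5 bases. Per kilobase its level was 15.1 CPM, at the 71.7th percentile. This was 2.33 times the level per kilobase of Irs1, although in CPM Akt1 was at 0.685 times Irs1. Akt2, the other Akt gene among the members, was not listed.

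Foxo1, the transcription factor gene on the plus strand of chromosome 3 from 52072259 to 52154031, was the lowest of the listed members on both scales. Its mean level was 21.5 CPM (log2 4.43), at the 54.3rd percentile. Per kilobase it was 3.88 CPM, at the 37.7th percentile and 0.626 times the median. The level per kilobase of Pik3r1, the highest listed member, was 5.38 times that of Foxo1. An annotated gene on the opposite strand, RP24-337A16.1, overlaps 12.1% of the Foxo1 transcript. The paralog Foxo3 was not listed, and neither was Ptpn1, the phosphatase gene.

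The order of the listed members per kilobase was Pik3r1, Insr, Akt1, Irs1 and Foxo1, and in CPM it was Insr, Pik3r1, Irs1, Akt1 and Foxo1. Of the 5, 4 lay above the median of the listed genes per kilobase and 5 in CPM. By definition, 50% of the listed genes lie above each median. No error can be given for a mean with no values for single mice, so whether neighbours in this order differ beyond the spread between mice could not be assessed. In whole liver, more cells of a type and more RNA per cell cannot be told apart.

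**Figure D2:**
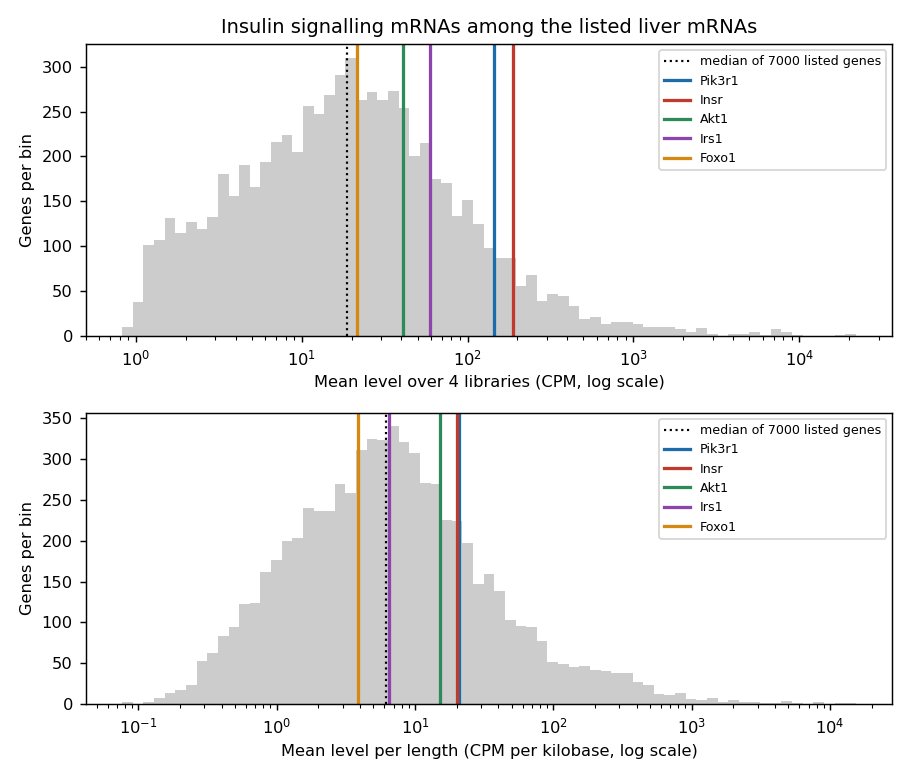
Distribution of the authors' mean level over the 7000 listed genes, in CPM (top) and in CPM per kilobase of mRNA (bottom), both on a log axis, with the number of genes per bin on the vertical axis. Coloured lines mark the 5 listed members and the dotted line the median; Insr and Pik3r1 lie farthest to the right, at 187 and 144 CPM, and Foxo1 falls below the median only per kilobase.

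Most of the length of these mRNAs is untranslated in 4 of the 5 listed members. In the annotated transcripts nearest to the deposited lengths, the 3′ UTR has 4747 bases in Insr, 4525 in Irs1, 4119 in Pik3r1 and 3128 in Foxo1, against a median of 985 bases over 5995 listed genes with a transcript within 10% of the deposited length. These 4 members were at the 96.8th, 96.3rd, 95.0th and 89.0th percentile of 3′ UTR length. Akt1, with a 3′ UTR of 877 bases, was at the 45.8th. The coding part made up 31.5% of the transcript in Pik3r1, 35.3% in Foxo1, 40.4% in Irs1, 44.0% in Insr and 53.6% in Akt1. The transcript and the deposited length differed by 19 bases for Irs1, by 2 for Pik3r1 and by 0 for the others.

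**Figure D3:**
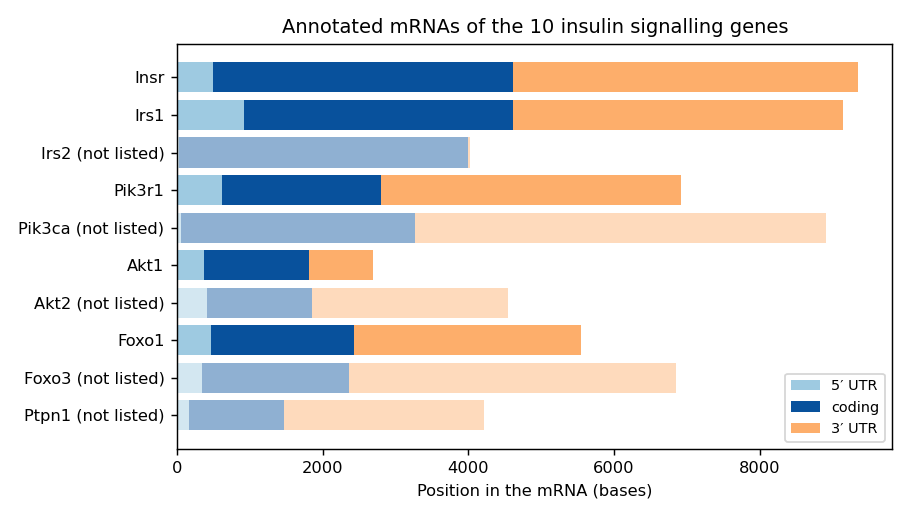
Annotated mRNAs of the 10 genes drawn to scale, with the position in bases on the horizontal axis. Pale blue is the 5′ UTR, dark blue the coding sequence and orange the 3′ UTR, and faded bars are genes that were not listed, drawn from their longest annotated coding transcript, which for Irs2 has almost no UTR. Among listed members the 3′ UTR runs from 877 bases in Akt1 to 4747 in Insr.

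Not being listed does not show that a gene was not expressed. The rows of the table stand in the order of the p-values of the authors' comparison of the diets and stop before the largest ones. A gene can thus be missing because it was filtered for a low level or because its p-value was large. A symbol can also be missing where the table uses another name, as synonyms were searched only for the members. Hepatocyte markers show that strongly expressed genes can be missing. Of 8 such symbols, 3 were listed, with Apoa1 at 7619 and Cyp2e1 at 4180 CPM per kilobase. Genes as strongly expressed by hepatocytes as Alb, Ttr and Cps1 were not listed. Medians and percentiles over the listed genes leave such genes out, and the list is partly cut by p-value. The listed markers of other liver cell types had lower levels than the listed hepatocyte markers. Of the Kupffer cell markers, 6 of 7 symbols were listed, between 5.15 (Marco) and 74.8 (Clec4f) CPM per kilobase, and Cd5l was at 73.7. The missing symbol, Adgre1, is the newer name of the listed Emr1. Of the sinusoidal endothelium markers 5 of 6 were listed, led by Clec4g at 76.9 and Stab2 at 16.4 CPM per kilobase, and of the stellate cell markers 6 of 6, led by Dcn at 98.3 and Rgs5 at 15.7. The levels of all 5 listed members fell within the range of these markers of other liver cells. For Foxo1, at 3.88 CPM per kilobase, this rests on the stellate cell markers Des (1.67) and Col1a1 (1.03), as the other markers of these 3 cell types were higher. How much of the RNA of a member came from each cell type was not tested. Cholangiocyte markers were listed for 1 of 5 genes (Spp1, 16.5 CPM per kilobase), lymphocyte markers for 1 of 6 (Ptprc, 3.93), pancreas markers for 1 of 5 (Cela1, 28.0), and skeletal muscle and adipocyte markers for 0 of 4 each.

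The members were set beside 61 other genes of the pathway, of which 35 were listed. Per kilobase, 13 of the 35 lay above the median of all listed genes, and their own median was 5.46 CPM per kilobase, against 15.1 for the 5 listed members. In CPM, 18 of the 35 lay above the median, so this count depends on the division by length. Per kilobase, 7 of these other genes were above Insr and 13 above Irs1. These other genes were looked up by symbol without synonyms, and the comparisons leave out every gene that was not listed.

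Among ligands and receptors, Igf1, the liver-made growth factor related to insulin, was at 93.5 CPM per kilobase, which was 4.68 times Insr. Igf2r, a receptor that carries Igf2 and lysosomal enzymes, was at 16.2. Igf1r, the receptor closest in kind to Insr, was at 0.370 CPM per kilobase and at the 2.50th percentile, with a mean of 4.43 CPM. Insr was thus 54.1 times Igf1r per kilobase and 42.2 times in CPM. Ins1, Ins2, Igf2 and Insrr were not listed. Grb2, Sos1 and Gab1, which lead from the receptor to the Ras pathway, were at 5.98, 5.73 and 2.13 CPM per kilobase. Per kilobase Irs1 was 1.09 times Grb2 and 3.05 times Gab1, and in CPM, with its longer mRNA, 3.81 and 5.75 times. Shc1, Irs3 and Irs4 were not listed.

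At the step of phosphatidylinositol 3-kinase, the level per kilobase of Pik3r1 was 4.88 times (10.7 times in CPM) that of its paralog Pik3r2, which was at 4.27 CPM per kilobase. Of the catalytic subunits looked up, only those of leukocytes were listed, with Pik3cd at 0.727 and Pik3cg at 0.249 CPM per kilobase. Pik3cb and Pik3r3 were not listed. The level per kilobase of Pik3r1 was 28.7 times that of Pik3cd (39.0 times in CPM), whose mean was 3.70 CPM. Pdpk1, the kinase that activates Akt, was at 10.4 CPM per kilobase, and Akt1 was 1.45 times as high on this scale but 0.544 times as high in CPM.

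Among the brakes of the pathway 10 of 14 genes were listed, and 3 lay above the median. Ppp2ca, the catalytic subunit of a phosphatase that acts on Akt among many substrates, was at 67.8 CPM per kilobase. Ptprf, a receptor tyrosine phosphatase, was at 22.6. The 7 below the median ranged from 0.571 for Phlpp2 to 5.94 for Inppl1, and Inpp5d, Ptpn11, Grb14 and Socs1 were not listed. In the TOR branch, which leads from Akt to protein synthesis, 6 of 12 genes were listed. Eif4ebp1, a repressor of translation that the kinase Mtor inactivates, was at 28.1, Mtor at 8.98 and Tsc2, a brake on Mtor that Akt inactivates, at 5.46 CPM per kilobase. Rheb, Mlst8, Mapkap1, Akt1s1, Rps6kb1 and Rps6kb2 were not listed. In the glycogen branch, the glycogen synthase kinase genes Gsk3a and Gsk3b were at 7.08 and 4.61, and Gys2 and Pygl were not listed.

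Downstream of Foxo1, the gluconeogenic genes Pck1 and G6pc were above the factor itself on both scales. Pck1, which encodes the cytosolic phosphoenolpyruvate carboxykinase, was at 799 CPM per kilobase and the 99.2nd percentile, or 206 times Foxo1 (97.0 times in CPM). G6pc, the catalytic subunit of glucose-6-phosphatase, was at 183 CPM per kilobase, or 47.2 times Foxo1 (19.1 times in CPM). Igfbp1, a binding protein for insulin-like growth factors, was at 10.6. The lowest of the group was Pdk4, a kinase that inhibits pyruvate dehydrogenase, at 0.893 CPM per kilobase, below Foxo1. These are mean levels over both diets, and an mRNA level does not measure the activity of the factor. Of the 11 genes in this group 6 were listed, and Foxo4, Foxo6, Ppargc1a and Srebf1 were among those that were not.

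**Figure D4:**
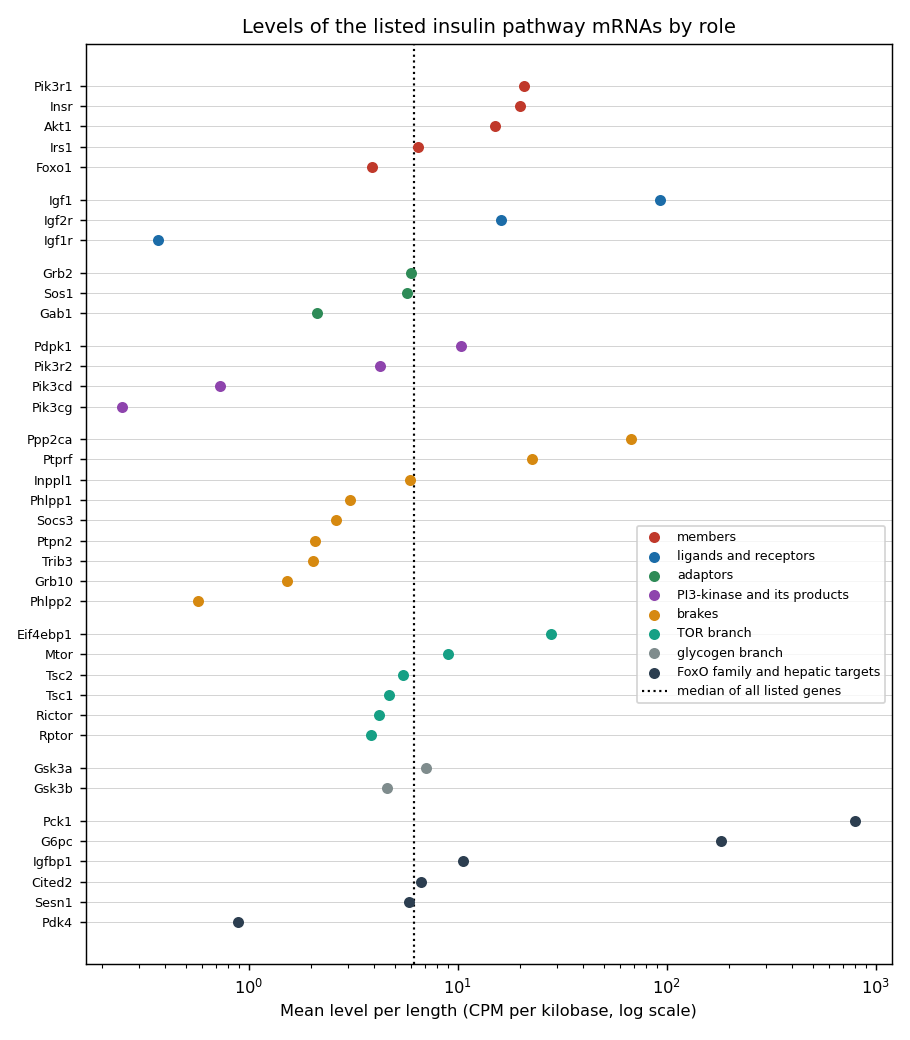
Mean level per length (CPM per kilobase, log axis) of the 5 listed members and of 33 of the 35 listed other pathway genes, 1 point per gene, coloured by role, with the median of all listed genes as a dotted line. Among the listed members Foxo1 is the one left of the median, while Igf1, Ppp2ca, Ptprf, Eif4ebp1, Pck1 and G6pc lie to the right of every listed member.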

How the data were processed

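Liver RNA-Seq libraries of 4 mice (2 on each diet) were sequenced as reads of 50 bases. Bowtie alignment by the authors used mm9 RefSeq mRNAs (1 per gene, its longest isoform), and reads that aligned uniquely with no more than 2 mismatches were kept. Genes above 1 CPM in at least 3 samples entered the authors' edgeR analysis. The log2 mean CPM over the 4 libraries was made by the authors with edgeR and is used as deposited, together with the mRNA length. Such a mean includes a small prior count that raises low values slightly. Tool versions: not given in the sources used here. Besides these values, the deposited table holds 3 columns of the authors' own comparison of the diets (log2 fold change, p-value and false discovery rate), which were not used beyond checking the order of the rows. It has 0 columns for single mice, so no test between diets was run, although one on counts had been planned.

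The log2 mean was converted to CPM and divided by the length in kilobases, and percentiles were taken over all 7000 listed genes. The 10 members and the lists were chosen with earlier results of these data known. All members are named, with the 3 highest listed genes and all unlisted genes of each pathway role, and the 2 highest of each marker list. A few others were chosen after their values were seen (Marco, Des, Col1a1, Pdk4, Phlpp2, Inppl1, Pik3cg and the unlisted hepatocyte markers). A few genes of these lists are counted but not reported here by name. GENCODE vM1 on NCBIM37, the assembly of mm9, gave coordinates and sequences. The levels and the motif search were tested on simulated data. Python 3.11.15, numpy 2.4.6, pandas 2.3.3 and matplotlib 3.10.9 were used.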

Additional observations from a re-analysis of the deposited data

How the results depend on the processing

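Of the 24 values recomputed under alternatives, 22 were counted as kept. Depending on the value, this meant its place among the members, its side of the median, or a count within 1.5 times. Without division by length, only the side of the median was judged for each member. The order of the members did change there, to Insr, Pik3r1, Irs1, Akt1 and Foxo1. The count of other pathway genes above the median also rose there, from 13 to 18 of 35, and was counted as kept. Dividing by the effective length (for reads of 50 bases) or by the longest annotated transcript left the order of the 5 listed members per kilobase as it was, and so did the shorter Pik3r1 transcript, an alternative chosen after seeing the data (24.7 CPM per kilobase). Without division by length, Foxo1 moved from below the median (37.7th percentile) to above it (54.3rd). Against the 4625 genes with a mean level of at least 10 CPM, the count of other pathway genes above the median was 8 of 26, in place of 13 of 35, because the median of that background is higher (12.0 CPM per kilobase), and 3 of the 5 members were above it. The ratios planned within pairs (Irs1 and Irs2, Akt1 and Akt2, Foxo1 and Foxo3, Pik3r1 and Pik3ca) could not be computed because 1 gene of each pair was not listed. Alternatives on counts and the omission of each mouse were not run for lack of values for single mice, and precision by depth could not be given.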
